A study of Mus musculus with 45 samples.

Results

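Hippocampal mRNA was compared between 5 A+Tw and 6 AwTw mice on the standard diet (STD), which are 11 of the 45 mice in the series. A+Tw mice carried a chimeric mouse/human APPswe transgene together with human PS1dE9, both driven by the mouse prion protein promoter, and AwTw mice were wild-type for these transgenes and for the tau transgene. The mice were female, on a C57Bl/6J background, and received the STD, with 5% w/w fat and 0% cholesterol, from 7 months of age until they were killed at 13 months. The members were taken by their genotype and diet labels alone, and all 15897 genes of the deposited table were tested. The other 34 mice carried the tau P301L transgene (AwT+), both transgenes (A+T+) or the typical western diet (TWD), and they enter here as a shared estimate of the spread and as 3 further comparisons of A+ with Aw mice.

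Mice with these transgenes deposit β-amyloid plaques as they age. Microglia, the resident macrophages of the brain, gather around plaques and take on a state known as disease-associated microglia, in which the lipid-sensing receptor Trem2 and its adaptor Tyrobp (Dap12) are required and genes for phagocytosis, lysosomal digestion and lipid handling are raised. Astrocytes near plaques become reactive and raise the filament protein gene Gfap. Because whole hippocampus was sequenced, more cells of a type and more mRNA per cell cannot be told apart in these values.

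The deposited values are variance-stabilised log2-like counts from which a batch, 0 or 1 in the labels, had been removed, so depth per mouse is not given in them and a difference of 1 is about a doubling for well expressed genes and less than that for rare ones. Medians of the 11 mice ranged from 8.17 to 8.30, and Pearson's r between pairs of these mice across genes, which are not independent replicates, ranged from 0.913 to 0.988. Batch 1 held 4 A+Tw and 4 AwTw mice, and batch 0 held 1 and 2. In the deposited values 0 genes had batch means differing by over 1e-6, so group differences were not protected in the removal. A+ mice were a larger share of batch 0, so genes raised in A+ mice can be lowered in its mice. Values and ranks of single mice, and overlap between groups, carry this shift, while the fit takes batch as a covariate. A+Tw mice 2 and 5 stood apart from the other A+Tw mice on the first component of the residual variation. Their scores were 1.23 and 0.97 against -1.42, -1.31 and -0.45, while AwTw mice ranged from -1.95 to 0.25. The gene weights came from the residuals but were applied to the full values, so these scores also hold group differences. The names of A+Tw mice 2 and 5 begin with PM, as do those of AwTw mice 2 and 3, and the names of the other mice compared begin with AM. What the prefix stands for is not given in the sources used here. In the same A+Tw mice the mean level of 90 ribosomal protein genes was 0.71 and 0.42 above the AwTw mean, against -0.04, -0.07 and -0.08 in the other 3. The AwTw mice ranged from -0.27 to 0.56 on that measure, and its part in the results below was not tested. Counts are therefore also given without A+Tw mice 2 and 5, an alternative chosen after seeing the data. That fit keeps 3 A+Tw mice, and having fewer mice can by itself cost calls. No other pair of mice was left out for comparison, so what cost a gene its call was not tested.

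App and Prnp were read first as a check of the labels. App (chromosome 16, 84949685 to 85173766, minus strand, GRCm38), the amyloid precursor gene, stood at 15.24, 15.48, 15.29, 15.30 and 15.66 in A+Tw mice and at 14.29 to 14.62, median 14.45, in AwTw mice. The groups did not overlap, and App was higher by 0.92 (SE 0.10, adjusted p = 9.59e-09, limma). Reads of the chimeric transgene and of mouse App cannot be told apart in this table. Prnp (chromosome 2, 131909928 to 131938429, plus strand), the prion protein gene whose promoter drives the transgenes, was at 15.02, 15.00, 14.90, 14.72 and 14.84 in A+Tw mice and at 13.54 to 13.89, median 13.72, in AwTw mice. Again no mouse of either group reached the other, and the difference was 1.14 (SE 0.09, adjusted p = 5.76e-12, limma).

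Lamr1-ps1, a processed pseudogene, ends 4969 bases before the start of Prnp on the same strand (chromosome 2, 131904086 to 131904959). Its values were 6.12, 6.20, 6.18, 6.25 and 6.49 in A+Tw mice, whereas all 6 AwTw mice held the lowest value of their batch, 4.06 or 4.62, which the table gives identically to several mice. The groups did not overlap, and the fitted difference was 1.78 (SE 0.14, adjusted p = 5.76e-12, limma). Across the series, 23 of 24 Aw mice were at that lowest value and 0 of 21 A+ mice, whose values ran from 5.56 to 6.73. Where its reads come from was not tested.

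Mapt and Camk2a, read beside App and Prnp, did not pass. Mapt, the tau gene, was at 12.73 to 13.05 in A+Tw and at 12.69 to 13.16 in AwTw mice, and the groups overlapped throughout (difference 0.00, 95% interval -0.22 to 0.22). In this table Mapt cannot check the tau label, because it barely differed with the tau transgene. On the STD its mean was 13.02 in AwT+ and 12.90 in AwTw mice, and 12.89 in A+T+ and 12.90 in A+Tw mice. Camk2a, a kinase of excitatory neurons, was at 15.64 to 16.12 against 15.65 to 16.42, with a difference of -0.06 (95% interval -0.34 to 0.23).

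Of the 15897 genes, 147 passed an adjusted p of 0.05 (0.925%), of which 146 were higher in A+Tw mice (0.918%) and 1 was lower (0.00629%). The table lists 3 of the called genes under a second identifier with identical values, so 144 separate genes were called, 143 of them higher, and 140 were protein coding. The 143 were higher by 0.41 to 4.31, with a median of 0.79, and 43 of them by over 1. The median difference of all genes was -0.005, and 49.0% of all genes were above 0. The groups did not overlap for 121 of the 144 called genes, against 1.27% of all genes. The genes were called on the same values, so this is a description and adds no support to the calls. When genes were ranked by mean level, 60 of the 144 lay in the lowest 25% of all genes and 25 in the highest 25%. With A+Tw mice 2 and 5 left out, 73 genes were higher and 0 lower. Of the 144, all had the same direction and 69 still passed in that fit, which has 3 A+Tw mice, and the median of the 143 was then 0.66. A fit to these 11 mice alone called 66 genes, and one with the name prefix as a covariate called 146. With the scores on the first residual component as a covariate and all mice kept, 168 genes were called, 166 of them higher. These scores also hold group differences. Batch 1 alone called 85, and there all 143 were above 0 with a median of 0.86. These fits use mice on which the genes were called, so the shared directions and the medians are a description.

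**Figure D1:**
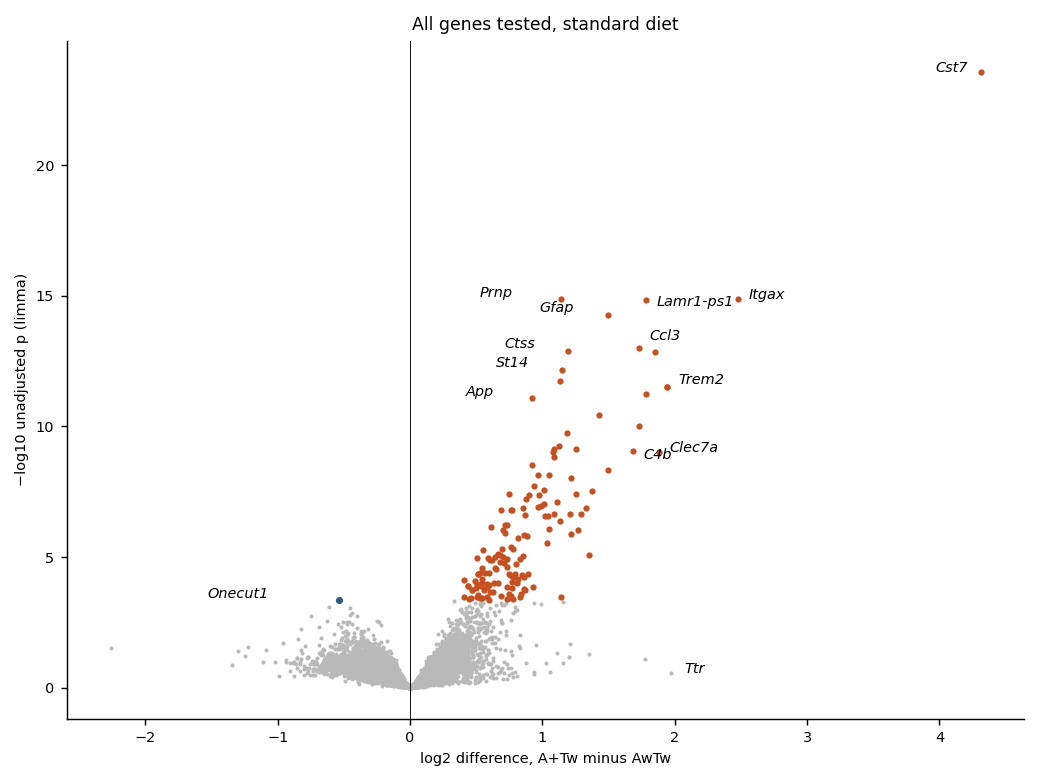
Each point is a gene, with its log2 difference between A+Tw and AwTw mice on the x axis and −log10 of its unadjusted limma p on the y axis. Orange points passed an adjusted p of 0.05 as higher, the blue point is Onecut1, the 1 gene that passed as lower, and grey points did not pass; Cst7 stands farthest out at 4.31.

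The gene with the largest difference was Cst7 (chromosome 2), which encodes cystatin F, an inhibitor of lysosomal cathepsins. It was at 9.21, 10.27, 9.77, 8.66 and 9.63 in A+Tw mice and at 4.75 to 5.37, median 5.13, in AwTw mice. The lowest A+Tw mouse was far above the highest AwTw mouse, and the difference was 4.31 (SE 0.19, 95% interval 3.93 to 4.70, adjusted p = 4.19e-20, limma), a fold of 19.9 on this scale. Itgax, the integrin CD11c, was at 7.58, 8.27, 8.07, 7.53 and 7.91 against 4.92 to 5.86, median 5.35. It did not overlap between groups and was higher by 2.48 (SE 0.20, adjusted p = 5.76e-12, limma).

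Trem2 was at 8.81, 10.07, 8.99, 8.77 and 9.64 in A+Tw mice and at 7.07 to 7.57, median 7.21, in AwTw mice. All A+Tw mice were above all AwTw mice, A+Tw mice 2 and 5 were the highest, and the difference was 1.95 (SE 0.20, adjusted p = 4.09e-09, limma). Tyrobp was at 9.63, 10.67, 9.67, 9.38 and 10.28 against 7.83 to 8.58, median 8.06. It too separated the groups, with the same mice highest, and rose by 1.78 (SE 0.18, adjusted p = 6.99e-09, limma). The Trem2 signalling list, downstream adaptors and enzymes included, had 5 of 14 measured members higher, with a median of 0.39. Besides Trem2 and Tyrobp these were Lat2, an adaptor (0.83), Ptpn6, the phosphatase Shp1 (0.87), and Vav1, a guanine nucleotide exchange factor (0.60). Syk, the kinase that Tyrobp recruits, differed by 0.31 (adjusted p = 0.743) and the lipid phosphatase Inpp5d by 0.41 (adjusted p = 0.704), and neither passed. Without A+Tw mice 2 and 5, Trem2 and Tyrobp were the 2 members called.

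**Figure D2:**
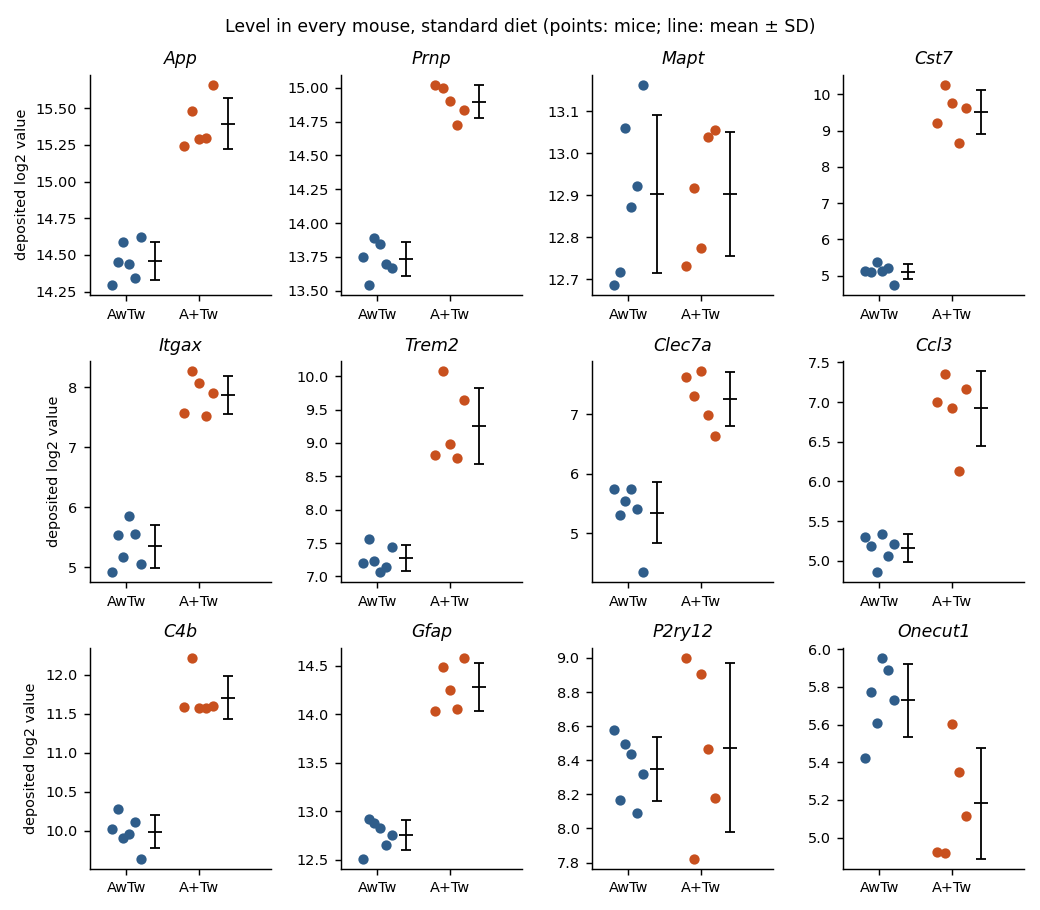
Deposited log2 values of 12 genes in each AwTw (blue, n = 6) and A+Tw (orange, n = 5) mouse on the standard diet, with the mean and SD beside each group; y axes differ between panels and do not start at 0. App, Prnp, Cst7, Itgax, Trem2, Clec7a, Ccl3, C4b and Gfap separate the groups, whereas Mapt, P2ry12 and Onecut1 overlap.

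The gene lists of this report were drawn up with earlier results of these data known, so the shares of their members called are a description. Of all genes, 0.918% were called higher. The disease-associated microglia list had 16 of 30 members higher and 0 lower, with a median difference of 0.85. The mean level of this list per mouse was 0.95, 1.30, 1.05, 0.74 and 1.11 above the AwTw mean in A+Tw mice, and between -0.10 and 0.10 in AwTw mice. Clec7a, the receptor dectin-1, was at 7.62, 7.30, 7.72, 6.99 and 6.64 against 4.35 to 5.74, median 5.47, without overlap, and was higher by 1.88 (SE 0.24, adjusted p = 6.73e-07, limma). For this gene A+Tw mouse 5 was the lowest of its group. Cd68, a lysosomal membrane glycoprotein of phagocytes, rose by 1.85, Ccl6, a chemokine, by 1.73, Lyz2, lysozyme, by 1.49, Cd52, a surface glycoprotein of leukocytes, by 1.42, and Gpnmb, a glycoprotein of lysosomes and melanosomes, stood at 8.12 to 8.87 against 7.11 to 7.49 (adjusted p = 0.000331, limma). Igf1, a growth factor, was higher by 0.97 and the tetraspanin Cd9 by 0.88. Members of the same list that did not pass were Apoe, the apolipoprotein (0.38, 95% interval 0.02 to 0.73, adjusted p = 0.785), Lpl, lipoprotein lipase (0.37, adjusted p = 0.535), Axl, a receptor kinase for apoptotic cells (0.43, adjusted p = 0.508), and Spp1, osteopontin (0.82, adjusted p = 0.772). The list had 15 calls without A+Tw mice 2 and 5, with a median of 0.80: Ctsl and Ch25h no longer passed, and the inhibitory receptor gene Lilrb4a did (1.37, against 0.99 with all mice).

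The list of homeostatic microglia genes, most of which are highly expressed by microglia of healthy brain, had 7 of 16 members higher, 0 lower, and a median of 0.53. Gpr84, for which that description is in doubt, was among the 7 (0.87). Fcrls, an Fc receptor-like gene of microglia, was at 9.32, 10.09, 9.60, 9.20 and 9.91 against 8.22 to 8.76, median 8.50. Its groups did not overlap and it was higher by 1.09 (SE 0.14, adjusted p = 6.04e-07, limma). Csf1r, the receptor for the survival factors of microglia, was higher by 0.70, Olfml3, a secreted protein, by 0.69, Siglech, a sialic acid-binding lectin, by 0.65 and Cx3cr1, the fractalkine receptor, by 0.55. P2ry12, the ADP receptor of microglial processes, was at 7.82, 8.91, 8.47 and 8.18 in A+Tw mice 2 to 5, with mouse 1 just above mouse 3, against 8.09 to 8.57, median 8.38. The A+Tw values fell on both sides of the AwTw range, and the difference was 0.13 (SE 0.29, 95% interval -0.45 to 0.71, adjusted p = 0.883). Tmem119, a microglial membrane protein, differed by 0.21 (adjusted p = 0.785) and Sall1, a transcription factor, by 0.14 (adjusted p = 0.794). Without A+Tw mice 2 and 5, 3 members were called, P2ry12 was at 0.44 (adjusted p = 1.00, limma), Sall1 at 0.28 and Tmem119 at -0.07, and the list median was 0.44.

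The pan-microglial list, genes common to microglia in either state, had 11 of 20 members higher and a median of 0.66. Mpeg1, perforin-2, was at 10.38, 10.00, 10.45, 9.85 and 10.17 against 8.31 to 9.15, median 8.86, with no overlap (difference 1.37, SE 0.20, adjusted p = 1.52e-05, limma). Laptm5, a lysosomal membrane protein, was higher by 1.19, Ly86 (MD-1) by 1.09 and the integrin Itgb2 by 1.04. Itgam, the integrin CD11b (0.42, adjusted p = 0.658), Aif1, Iba1 (0.55, adjusted p = 0.188), and Ptprc, CD45 (0.60, adjusted p = 0.584), did not pass. The list had 6 calls without A+Tw mice 2 and 5, with a median of 0.54. Among markers of other myeloid cells, border macrophage genes had 0 of 7 measured members called, 1 at an unadjusted p under 0.05 and a median of -0.17, with mean levels relative to the AwTw mean of -0.20 to 0.14 in A+Tw and -0.29 to 0.31 in AwTw mice. Of the 8 monocyte and neutrophil genes listed, 0 were in the table, which holds genes above the authors' count filter.

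Among myeloid transcription factors, 3 of 18 were higher. Irf8, which microglia need to develop, was at 7.82, 8.25, 7.94, 8.09 and 8.51 against 6.81 to 7.11, median 6.95. The groups did not overlap, and it was higher by 1.13 (SE 0.11, adjusted p = 3e-09, limma). Irf5, an interferon regulatory factor, was higher by 0.86 and Spi1, which encodes PU.1, the ETS factor of the myeloid lineage, by 0.74 (adjusted p = 0.0426). Spi1 overlapped between groups and did not pass without A+Tw mice 2 and 5. The regulators Ep300 (-0.10, adjusted p = 0.89) and Elf1 (0.05, adjusted p = 0.915) did not pass, and both changed sign with the processing.

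Since many of the called genes moved together, the 250 bases before the transcription start were read for 107 of the 144 genes, those with an entry among RefSeq promoters on GRCm38.p6 (127 promoters). The motifs searched, on both strands, were chosen with the results known and are a description. GAGGAAGT, a sequence bound by PU.1, was present in 11% of the promoters of called genes and in 2.19% of 14920 promoters of all tested genes. The ETS-IRF composite element, in which an ETS site such as that of PU.1 adjoins an interferon regulatory factor site, was in 2.36% against 0.409%. The composite was held by 3 of the 127 promoters, from 2 genes, Clec7a and Fcgr2b, and 2 of these are overlapping Clec7a promoters with the same site, so 1 site is counted more than once. CACGTG, the E-box, was in 7.09% against 7.86%, and TGACTCA, a sequence bound by AP-1, in 7.87% against 3.24%. CCGGAAGT, bound by other ETS factors, was in 0 of the 127 promoters against 5.11% of all. The 3 promoters below show an example of the first 3 motifs, with the motif in capitals, 5′ to 3′ on the gene's strand and ending at the base before the start. C1qc holds GAGGAAGT on its minus strand, first base 195 bases before the start (chr4:136892915-136893164, minus strand). Clec7a holds the composite element on its minus strand, first base 66 bases before the start (chr6:129472780-129473029, minus strand), and Ctsd, cathepsin D, holds CACGTG at 245 and 98 bases before the start (chr7:142387828-142388077, minus strand).
C1qc: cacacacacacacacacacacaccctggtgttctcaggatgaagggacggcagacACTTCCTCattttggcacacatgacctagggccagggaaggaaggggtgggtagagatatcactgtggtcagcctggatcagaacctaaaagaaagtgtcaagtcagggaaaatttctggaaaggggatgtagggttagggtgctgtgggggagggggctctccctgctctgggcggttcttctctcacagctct
Clec7a: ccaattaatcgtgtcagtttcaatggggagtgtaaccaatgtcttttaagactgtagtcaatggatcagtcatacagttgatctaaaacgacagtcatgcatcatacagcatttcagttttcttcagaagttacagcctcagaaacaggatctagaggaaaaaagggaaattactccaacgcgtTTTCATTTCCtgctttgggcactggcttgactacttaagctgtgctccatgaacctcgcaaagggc
Ctsd: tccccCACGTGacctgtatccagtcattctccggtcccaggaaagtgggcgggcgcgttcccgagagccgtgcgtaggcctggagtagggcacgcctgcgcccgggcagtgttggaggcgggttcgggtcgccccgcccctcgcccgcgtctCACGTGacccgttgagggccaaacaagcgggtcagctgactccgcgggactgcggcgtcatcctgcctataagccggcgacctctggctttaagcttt

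The complement list had 5 of 16 measured members higher, with a median of 0.17. C4b, complement C4, was at 11.59, 12.21, 11.57, 11.57 and 11.59 in A+Tw and at 9.64 to 10.28, median 9.99, in AwTw mice. The groups did not overlap, A+Tw mouse 2 was the highest, and C4b was higher by 1.69 (SE 0.21, adjusted p = 6.73e-07, limma). C4a, its near copy, differed by 0.58 (adjusted p = 0.785), and how reads were divided between the pair is uncertain. The genes for the 3 chains of C1q, the initiator of the classical pathway, moved alike: C1qa was higher by 1.33, C1qb by 1.27 and C1qc by 1.29. C1qa was at 10.88, 12.14, 10.94, 10.77 and 11.80 against 9.69 to 10.38, median 9.82, and all 3 chains were highest in A+Tw mice 2 and 5. C3ar1, the C3a receptor, was higher by 0.81, whereas C3 itself was at 6.62 to 7.82 against 5.82 to 7.21 and did not pass (0.83, adjusted p = 0.482). Without A+Tw mice 2 and 5 the list had 4 calls, and C1qb was not among them (0.83, adjusted p = 0.0945).

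Fc receptors, which bind antibody, had 4 of 5 measured members higher. Fcgr2b, the inhibitory receptor, was higher by 1.01, Fcer1g, the shared signalling chain, by 0.98, Fcgr3 by 0.92 and Fcgr1 by 0.60 (adjusted p = 0.049). The neonatal receptor gene Fcgrt was at 7.87 to 8.42 against 7.73 to 8.43 (difference -0.03, adjusted p = 0.965). Of the Toll-like receptor list, 4 of 13 measured members were higher: Cd14, a co-receptor for lipopolysaccharide, by 1.08, Cd180 by 0.80, Unc93b1, a chaperone of endosomal receptors, by 0.77 and Tlr2 by 0.75. Of Siglec, Pilr and other paired receptors, 7 of 13 measured members were higher, led by the checkpoint receptor Lag3 (1.09), Cd84 (0.86) and Cd22 (0.79). With A+Tw mice 2 and 5 left out, Fc receptors had 3 calls, Toll-like receptors 2 and paired receptors 4. Fcgr1 (0.51, adjusted p = 0.748), Tlr2 (0.70, adjusted p = 0.0836), Unc93b1 (0.52, adjusted p = 0.218) and Cd22 (0.82, adjusted p = 0.0697) did not pass in that fit.

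Chemokines and their receptors had 4 of 10 measured members higher. Ccl3 was at 7.00, 7.35, 6.93, 6.14 and 7.17 against 4.86 to 5.34, median 5.20. Its groups were well apart, A+Tw mouse 4 was the lowest, and it was higher by 1.73 (SE 0.16, adjusted p = 2.72e-10, limma). The other 3 were Ccl6, Ccl4 (0.86) and Cxcl10 (0.84, adjusted p = 0.0326). Cytokines and inflammasome genes had 3 of 11 measured members higher, among them the adaptor Pycard (0.78) and the interleukin receptor Il10ra (0.46), and colony stimulating factor and TGF-β signalling had 3 of 13, Csf1r, Csf3r (1.12) and Tgfb1 (0.76). With A+Tw mice 2 and 5 left out the chemokine list had 3 calls, the cytokine list 0 and the colony stimulating factor list 1, Csf3r, while Pycard was at 0.62 (adjusted p = 0.957) and Il10ra at 0.42 (adjusted p = 0.435). Interferon-stimulated genes had 0 of 21 called and 5 at an unadjusted p under 0.05, though all 21 were above 0, with a median of 0.28 and a range of 0.12 to 0.57. Of antigen presentation genes, 3 of 16 were higher: Ctss, the class I gene H2-D1 (0.93) and the immunoproteasome subunit Psmb8 (0.75). H2 genes resemble each other, so how reads were divided among them is uncertain. With A+Tw mice 2 and 5 left out Ctss was the 1 member called, H2-D1 was at 0.60 and Psmb8 at 0.49 (adjusted p = 1.00 for both, limma). Cd74, the invariant chain of class II, was at 8.47, 9.54, 8.21, 8.17 and 8.40 against 6.48 to 8.19, median 7.50, and with this spread did not pass (1.21, SE 0.50, adjusted p = 0.704).

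Cystatins and cathepsins, the lysosomal proteases and their inhibitors, had 7 of 15 members higher. Ctss, cathepsin S, was at 11.19, 11.58, 11.11, 10.72 and 11.21 against 9.71 to 10.18, median 9.95, without overlap (difference 1.19, SE 0.11, adjusted p = 2.72e-10, limma). Ctsd was at 13.44, 14.44, 13.73, 13.44 and 14.19 against 12.22 to 13.07, median 12.54, and was higher by 1.25 (SE 0.18, adjusted p = 1.78e-05, limma). Ctsz was higher by 1.21, Ctsh by 0.73, Ctsl by 0.59 and Ctsa by 0.58. Cst3, cystatin C (0.50, adjusted p = 0.581), and Ctsb, cathepsin B (0.42, adjusted p = 0.172), did not pass. The lysosome list had 7 of 23 measured members higher, with a median of 0.29, including Gusb, β-glucuronidase (0.75), Grn, progranulin (0.70), Hexa, a hexosaminidase subunit (0.66), and Man2b1, a mannosidase (0.61). Without A+Tw mice 2 and 5 the 2 lists had 4 and 3 calls.

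Lipid handling had 2 of 18 measured members higher, among them the cholesterol hydroxylase Ch25h (0.60, adjusted p = 0.0158), and 0 without A+Tw mice 2 and 5. Clu, clusterin, did not pass (0.33, adjusted p = 0.777). Cholesterol synthesis had 0 of 17 called and 4 at an unadjusted p under 0.05, with a median of 0.17.

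**Figure D3:**
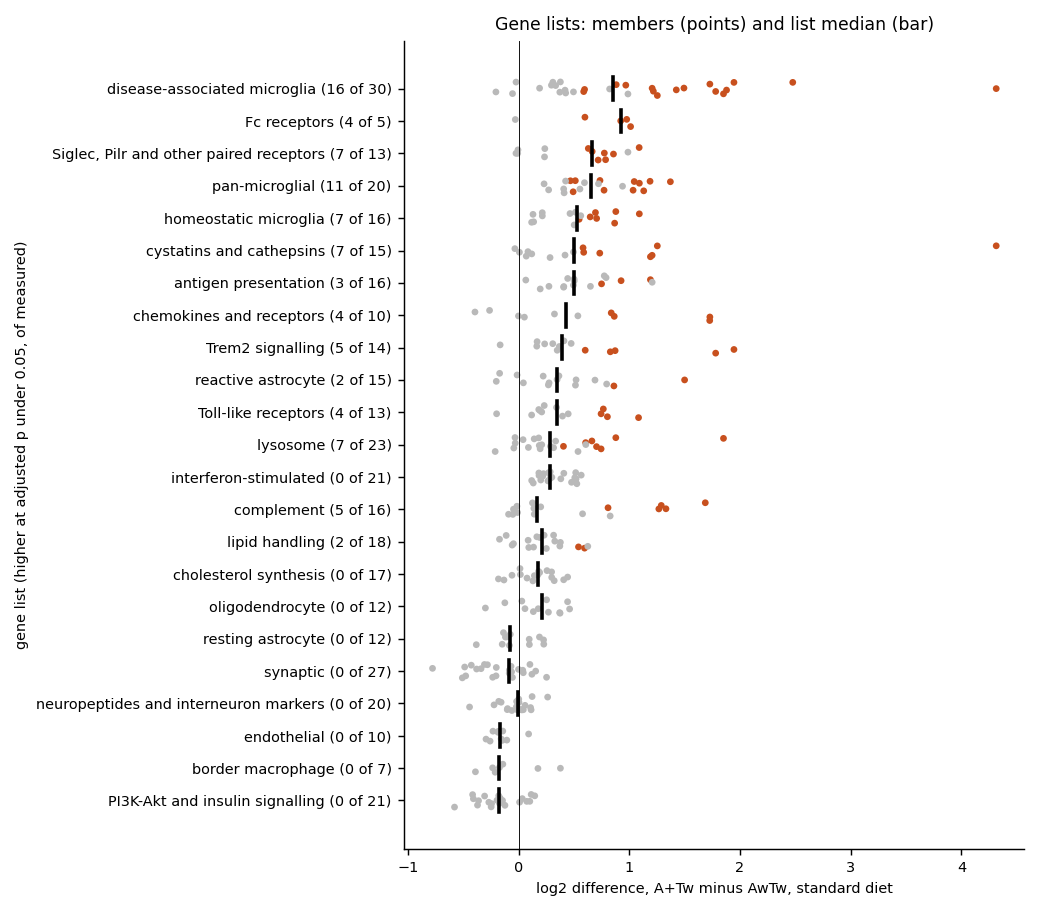
Log2 differences between A+Tw and AwTw mice on the standard diet (x axis) for the members of 23 gene lists (rows), as points, with the list median as a bar. The lists were drawn up with earlier results of these data known, and 0.918% of all genes passed as higher. Orange points passed an adjusted p of 0.05, and the count beside each name gives how many of the measured members did; calls lie in the immune, lysosomal, lipid and reactive astrocyte lists, and the neuronal and vascular lists have 0.

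Of reactive astrocyte genes, 2 of 15 measured members were higher. Gfap was at 14.04, 14.49, 14.25, 14.06 and 14.58 against 12.51 to 12.91, median 12.79. The groups did not overlap, and Gfap was 2.83-fold higher on this scale (log2 95% interval 1.25 to 1.75, adjusted p = 1.72e-11, limma). Serpina3n, a protease inhibitor, was higher by 0.86 (adjusted p = 0.00935), but with A+Tw mice 2 and 5 left out it was at 0.63 and did not pass (adjusted p = 0.572), so that Gfap was the 1 member called. Vim, vimentin, was at 9.86, 10.53, 9.91, 9.92 and 10.29 against 8.76 to 9.60 without overlap, yet its difference of 0.80 did not pass (adjusted p = 0.0787), and neither did that of the cytokine receptor Osmr (0.52, adjusted p = 0.366). Resting astrocyte genes had 0 of 12 called, 0 at an unadjusted p under 0.05, and a median of -0.08. Aqp4, the water channel of astrocyte endfeet, differed by 0.23 (adjusted p = 0.785) and Slc1a2, the main glutamate transporter, by -0.38 (adjusted p = 0.785), with 13.50 and 13.88 in A+Tw mice 2 and 5 against 14.51 to 14.82 in the other 3. Without those mice Slc1a2 was at 0.02.

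The neuronal lists held no call by limma. The synaptic list had 0 of 27 called, and 0 at an unadjusted p under 0.05, with 21 below 0 and a median of -0.08. Its largest difference was that of Gabrb2, a GABA-A receptor subunit, at 9.26, 6.87, 9.55, 9.15 and 7.58 against 8.11 to 10.09, median 9.51. Again A+Tw mice 2 and 5 were the low ones, and the difference was -0.78 (95% interval -1.90 to 0.34, adjusted p = 0.785), or 0.04 without them. Gria2, an AMPA receptor subunit, showed the same layout, with 10.74 and 10.93 in these mice and 12.10 to 12.50 in the other 3 (difference -0.51, adjusted p = 0.785). Neuropeptides and interneuron markers had 0 of 20 called, immediate early genes 0 of 12 and hippocampal subfield genes 0 of 10, with 1, 0 and 0 at an unadjusted p under 0.05. PI3K-Akt and insulin signalling had 0 of 21 called, and 0 at an unadjusted p under 0.05, with 15 below 0 and a median of -0.18, or -0.05 without A+Tw mice 2 and 5. Pik3r1, a regulatory subunit of PI3K, differed by -0.17 (adjusted p = 0.794) and the transcription factor Foxo1 by -0.25 (adjusted p = 0.785), and both were above 0 without those mice.

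Oligodendrocyte genes had 0 of 12 called with a median of 0.22, endothelial genes 0 of 10 with a median of -0.17, and fibroblast and pericyte genes 0 of 10 with a median of -0.15. At an unadjusted p under 0.05 these lists had 5, 0 and 0. The share of all genes under that p in this comparison is not given here. Counts of list members at an unadjusted p are therefore a description, for these lists and the others. Of the 4 blood genes measured, which encode hemoglobins and other red cell proteins, 0 passed, and their mean level was 2.24 above the AwTw mean in A+Tw mouse 5 and at most 0.80 in AwTw mice. Cell cycle genes had 0 of 14 measured members called, 2 at an unadjusted p under 0.05 and a median of 0.02. Choroid plexus genes varied far more between mice than between groups. Ttr, transthyretin, the leading choroid plexus transcript, was at 15.14, 11.05, 16.12, 14.42 and 15.21 in A+Tw and at 9.19 to 16.64, median 11.16, in AwTw mice (difference 1.97, SE 1.80, adjusted p = 0.785). The groups overlapped over most of the range. All 10 choroid plexus genes were above 0 and 0 passed, and with their score as a covariate, an alternative chosen after seeing the data, 146 genes were called.

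The lower gene that passed, Onecut1, a homeobox transcription factor, was at 4.92, 4.92, 5.60, 5.35 and 5.11 in A+Tw and at 5.42 to 5.95, median 5.75, in AwTw mice. The groups overlapped in 1 A+Tw mouse, and the difference of -0.53 (SE 0.14, adjusted p = 0.0494, limma) did not pass without A+Tw mice 2 and 5 (-0.44, adjusted p = 0.896).

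Of the 144 called genes, 63 were on none of the 37 lists. The smallest p-values among them, after Lamr1-ps1, included St14, the membrane serine protease matriptase, at 6.48, 6.96, 6.85, 6.58 and 6.60 against 5.42 to 5.62, median 5.52. The 6 AwTw mice were tightly grouped below all A+Tw mice, and it was higher by 1.15 (SE 0.11, adjusted p = 1.2e-09, limma). Hcar2, the receptor for niacin and β-hydroxybutyrate, was at 5.65, 5.96, 6.08, 5.60 and 6.29 against 4.24 to 4.95, median 4.70, and was higher by 1.26 (SE 0.16, adjusted p = 6.04e-07, limma). Slc15a3, a lysosomal peptide transporter, stood at 6.98 to 7.58 against 5.74 to 6.15 (adjusted p = 5.04e-06, limma). Asb10 was higher by 1.11, AU020206 by 1.05, Ly9, a SLAM family receptor, by 0.97, Tbxas1, thromboxane A synthase, by 0.94 and Hvcn1, a voltage-gated proton channel, by 0.90. Bcl2a1b, an anti-apoptotic gene with near-identical copies, was higher by 1.01, so how its reads were assigned is uncertain. Gm49339 was at 5.33, 5.67, 6.41, 5.82 and 5.98 against 4.23 to 5.04, with 5 of 6 AwTw mice at the lowest value of their batch (difference 1.35, adjusted p = 0.0018).

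The 143 higher genes averaged 0.82, 1.18, 0.85, 0.70 and 1.08 above the AwTw mean in the 5 A+Tw mice, and -0.07 to 0.07 in AwTw mice. These genes were chosen on the same mice, so this is a description. A+Tw mouse 2 was the highest of its group for 74 of the 143 genes and mouse 5 for 37. Mouse 4, the A+Tw mouse of batch 0, was the lowest for 64. The batch removal can lower such genes in batch 0 mice, and its part in these ranks was not tested. In the other groups, which entered the choice of genes through the shared estimate of the spread, the mean relative to the AwTw/STD mean was 0.73 to 1.05 in the A+T+/TWD group, 0.81 to 1.02 in A+Tw/TWD and 0.75 to 0.93 in A+T+/STD, and no Aw mouse of the series was above 0.37.

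**Figure D4:**
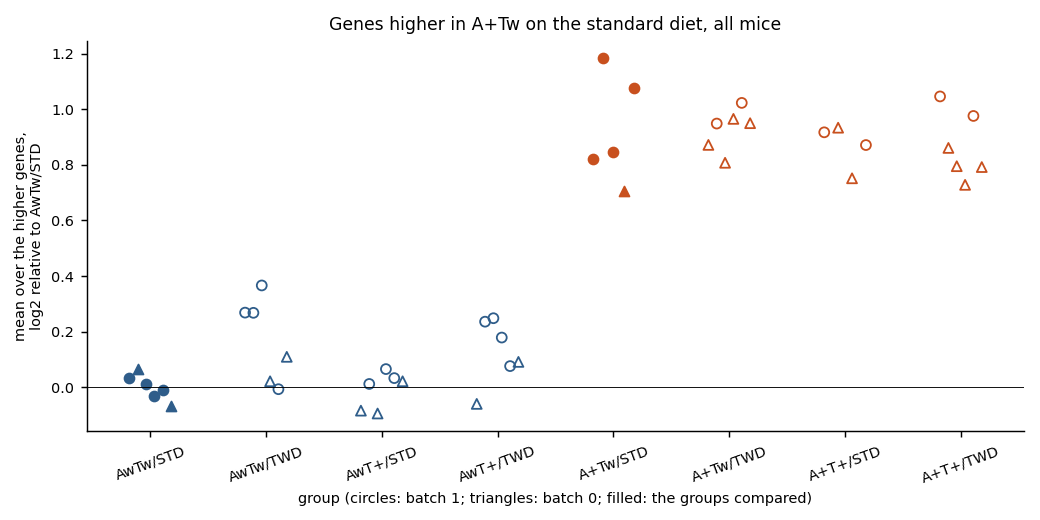
Mean log2 value of the 143 higher genes in each of the 45 mice (y axis), relative to the AwTw/STD mean, by group (x axis). Circles are batch 1 and triangles batch 0, filled symbols are the 2 groups compared, and every A+ mouse (orange, 0.70 to 1.18) lies above every Aw mouse (blue, -0.09 to 0.37).

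The same transgenes were compared in 3 further pairs of groups that share no mice with these 11. These comparisons come from the same fit and its shared estimate of the spread, so passing in them is not independent of the calls here. Against AwTw/TWD mice, A+Tw/TWD mice had 0.824% of all genes called, and of the 144 genes 143 had the same direction and 104 passed. Against AwT+/STD mice, A+T+/STD mice had 0.95% called, and again 143 had the same direction and 104 passed. Against AwT+/TWD mice, A+T+/TWD mice had 0.761% called, with 144 in the same direction and 100 passing. The median of the 143 higher genes was 0.79 here and 0.72, 0.81 and 0.65 there, in that order. In all 3 pairs 79 genes passed, in 2 pairs 27, in 1 pair 17 and in none 21. Cst7 was higher by 4.15, 4.18 and 3.89, Trem2 by 1.72, 1.93 and 1.70, and Gfap by 1.23, 1.60 and 1.44. Apobr, a receptor for apolipoprotein B, was among the 21. It was higher by 0.77 on the STD without tau (adjusted p = 0.0131, limma) and differed by -0.05, 0.13 and 0.51 in the other pairs. Without A+Tw mice 2 and 5 Apobr was at 0.56 and did not pass (adjusted p = 0.711, limma). It also lost its call with only the 11 mice, in batch 1 alone and with any of 3 single mice left out.

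**Figure D5:**
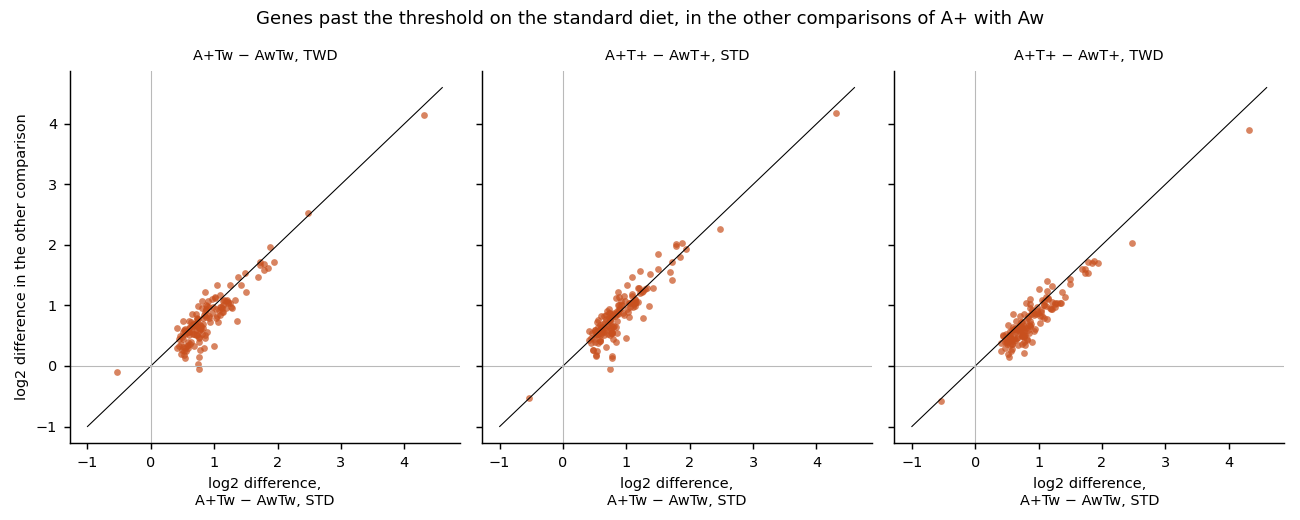
Log2 differences of the 144 called genes on the standard diet (x axis) against their differences in each of 3 other comparisons of A+ with Aw mice (y axes), 1 point a gene, with the line of equality. Most points lie near the line, and Cst7 is at the upper right in each panel.

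Whether the difference itself changed with diet or with tau was tested by interaction. No gene passed for the diet (0 of 15897; 352 at an unadjusted p under 0.05; smallest adjusted p 0.919) or for tau on the STD (0 of 15897; 298 at an unadjusted p under 0.05; smallest adjusted p 1). The smallest diet p was that of Dcaf1, a ubiquitin ligase subunit (0.78, unadjusted p = 0.000491), and the smallest tau p that of Slc9b2, a sodium/proton exchanger (1.12, unadjusted p = 0.00057). Of the 143 higher genes, 102 had a smaller difference on the TWD and 81 a smaller one with tau. The median interaction over the 144 called genes was -0.11 for the diet and -0.01 for tau. The genes were called on the STD mice, so these counts are given without a test.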

How the data were processed

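RNA of 45 hippocampi was sequenced as stranded single reads of 50 bp on 2 lanes. Per the labels and the study's methods, the authors trimmed reads with Trimmomatic 0.38, removed ribosomal and mitochondrial reads with Bowtie2 2.2.3, quantified transcripts with kallisto 0.44.0 on mm10, kept genes with a mean count above 10 and applied the variance-stabilising transformation of DESeq2 1.22.2. The deposited values are log2-scale transformed counts from which the authors removed the batch with limma 3.38.3, so counts and depth are unknown, and p-values after such removal can be too small.

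Here limma 3.58.1 (R 4.3.3) was fitted to all 8 groups with batch as a covariate and a mean trend, and p-values were adjusted by Benjamini-Hochberg over 15897 genes. All tests were two-sided, intervals are 95%, and the script was tested on simulated data. Replicates are separate mice, numbered in the order of the labels. Annotation was GENCODE M21 (GRCm38), and 15695 genes had a symbol.

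Gene lists and the genes on them were chosen with earlier results of these data known. Named genes were the transgene checks, the 25 largest non-overlapping differences among called genes and every lower gene. For these 25, non-overlap was fixed by the rule. From each list came the leading called and most expressed uncalled genes. The 6 genes that the study names for its RNA sequencing were Trem2, Tyrobp, Pik3r1, Foxo1, Ep300 and Elf1. The smallest p-values off the lists and the smallest interaction p-values completed the rule. Genes outside this rule, among them P2ry12, Igf1, Cd9, Spp1, Lpl, Axl, Cx3cr1, Siglech, Aif1, Ptprc, Syk, C3, C4a, Cd74, Gabrb2 and Gria2, were chosen after their values were seen, as was Apobr.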

Additional observations from a re-analysis of the deposited data

Results flagged for a closer look

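In 228 groups of 5 or 6 mice, of 113 named genes and the mean of the higher genes, 11 held a mouse whose gap to the nearest other mouse was large for the range of its group. Chance alone flags about 1 in 20 groups. The 11 flagged are close to that share, so the mice below are listed as a description. A+Tw mouse 2 was high for C4b, at 12.2 against 11.6 in the next mouse, and for Cd74, at 9.54 against 8.47. A+Tw mouse 4, the A+Tw mouse of batch 0, was low for Cd52, at 6.92 against 7.43, and for Fcgr2b, at 7.76 against 8.16. The batch removal can lower genes raised in A+ mice in all batch 0 mice, among them AwTw mouse 6 below. Its part in these flags was not tested.

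AwTw mouse 6, of batch 0, was low for Clec7a, at 4.35 against 5.30, and for Fcgr2b, at 6.76 against 7.08. The same mouse was high for Laptm5, at 10.1 against 9.72, and for Ptpn6, at 7.40 against 6.95. AwTw mouse 2, also of batch 0, was high for Aif1, at 7.15 against 6.69, and for Fcer1g, at 8.05 against 7.68. AwTw mouse 1 was high for Gm49339, at 5.04 against 4.45.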

How the results depend on the processing

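The number of genes called on the STD changed with the mice and genes fitted. Against 147 genes with all 45 mice, 66 were called with only the 11 mice compared, 85 in batch 1 alone, 82 among genes above the 25th percentile of the mean and 73 (73 higher) with A+Tw mice 2 and 5 left out, the last of which was chosen after seeing the data. The other fits gave 132 to 168, an adjusted p of 0.1 gave 171, and leaving out 1 mouse at a time gave 109 to 155 (109 to 153 higher), with 109 without A+Tw mouse 2 and 109 without mouse 5. The fit to 11 mice has fewer degrees of freedom; other causes were not tested. No gene was lower (0) with the 11 mice, in batch 1, with the mean filter or without mice 2 and 5. By count, 2 were lower with the residual component, quantile normalization or quality weights, 3 at an adjusted p of 0.1, and 0 to 2 without 1 mouse. Onecut1 itself did not pass with the residual component, quality weights, the choroid plexus score or, singly, 9 of the 11 mice left out, so the lower genes counted in the first 3 of these fits are others.

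With each mouse left out in turn, 88 of the 144 genes passed every time. Of 80 named genes past the threshold, 31 no longer passed with only the 11 mice, 26 in batch 1 and 29 without A+Tw mice 2 and 5.

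For A+Tw/TWD against AwTw/TWD (131 genes) the count was 24 in batch 1, 204 with the residual component and 71 with the mean filter; for A+T+/STD against AwT+/STD (151) it was 31, 242 and 94, and 551 with quality weights; for A+T+/TWD against AwT+/TWD (121) it was 34 in batch 1 and 72 with the mean filter. The interactions stayed at 0 in each fit run.

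Values that changed sign were of genes that did not pass. Mapt was at -0.00019 without the batch covariate, -0.016 in batch 1, -0.0037 with the label prefix, -0.011 with the residual component, -0.016 after quantile normalization, -0.055 without mice 2 and 5, and -0.045 to 0.052 without 1 mouse. Without A+Tw mice 2 and 5, Tmem119 was at -0.071, Pik3r1 at 0.11, Slc1a2 at 0.020, Gabrb2 at 0.037, Gria2 at 0.070, Foxo1 at 0.051 and Ep300 at 0.17. With the residual component Pik3r1 was at 0.049 and Ep300 at 0.028, and with quality weights Ep300 was at 0.13. In batch 1, Fcgrt was at 0.058 and Elf1 at -0.13. Without 1 mouse, Camk2a ranged from -0.12 to 0.039, P2ry12 from -0.00096 to 0.29, Fcgrt from -0.12 to 0.035, Ep300 from -0.28 to 0.064 and Elf1 from -0.025 to 0.14. The median of the chemokine list was -0.13 with the mean filter, which removes its rare members.

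No paired analysis was possible because the labels give mouse names and no replicate numbers shared between groups. Depth limits rare genes, but it is not given in the values.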
